A study of Homo sapiens with 8 samples.

Results

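Expression of 5 regulators and markers of definitive endoderm, SOX17, FOXA2, HHEX, PRDM1 and CXCR4, was examined in human embryonic stem cells labelled as wild type or SETD7 knockout. The genes were taken by symbol from 2 deposited tables, by a list chosen with earlier results of these data known. All 5 were among the 14070 genes of the day 0 table and 4 were among the 11644 genes of the day 2 table; FOXA2 was not analysed here at day 2. The cells were H1, an established human embryonic stem cell line, either wild type or labelled as a knockout of SETD7, which encodes a lysine methyltransferase. Both genotypes were grown in mTESR medium and put through the same blood-directed differentiation. They were sampled on day 0, with 1 library per genotype, and on day 2, with 3 libraries per genotype, 8 in all. The labels give neither the way the knockout was made nor the number of clones behind it. Nor do they say that replicates came from separate cultures, and the spread behind each p-value may therefore be technical.

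Definitive endoderm arises from the primitive streak, next to the mesoderm from which blood and heart derive, when streak cells receive strong Nodal and Wnt signals. SOX17, an HMG-box transcription factor, is the gene most used to recognise it, and FOXA2, a forkhead factor that opens chromatin, appears with it. HHEX, a homeobox repressor, marks the anterior endoderm and is also present in blood and vessel progenitors. PRDM1 (BLIMP1) is a zinc finger repressor whose PR domain is related to the SET domain of histone methyltransferases; it acts in endoderm, in primordial germ cells and in plasma cells. CXCR4 is the receptor for the chemokine CXCL12 and is used to sort endoderm cells, although nascent mesoderm carries it too.

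The genotypes were first checked at SETD7 itself. Day 2 wild-type replicates 1, 2 and 3 held 54.8, 56.2 and 55.6 CPM (counts scaled to a common library size by TMM). Knockout replicates 1, 2 and 3 held 32.9, 28.9 and 33.7 CPM. The knockout libraries thus held 57.3% of the wild-type SETD7 level. At day 0, SETD7 was at 3.53 FPKM (fragments scaled for transcript length and library size) in wild type and 1.48 FPKM in the knockout. The labels do not say which part of the gene was altered, and protein was not measured, so these values do not show whether the enzyme was absent. Day 2 library totals ran from 27880068 to 39553614 counts, the highest being knockout replicate 1, and day 0 depth is unknown.

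At day 2 the 4 measured regulators divided evenly: SOX17 and PRDM1 fell in the knockout, and HHEX and CXCR4 did not pass the test. SOX17 dropped to 67.7% and PRDM1 to 59.7% of wild type. The test was edgeR's quasi-likelihood F test on all 11475 genes kept after a low-count filter, all 4 regulators included, with a call at an adjusted p under 0.05. Over all tested genes 23.3% were called, 11.0% lower and 12.3% higher in the knockout, and both called regulators were lower. The share of calls that were higher was 52.7%, and 61.4% with upper-quartile scaling, under which SOX17 and PRDM1 were also called lower. These are bulk samples, in which fewer cells of a type and less RNA per cell cannot be told apart.

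**Figure D1:**
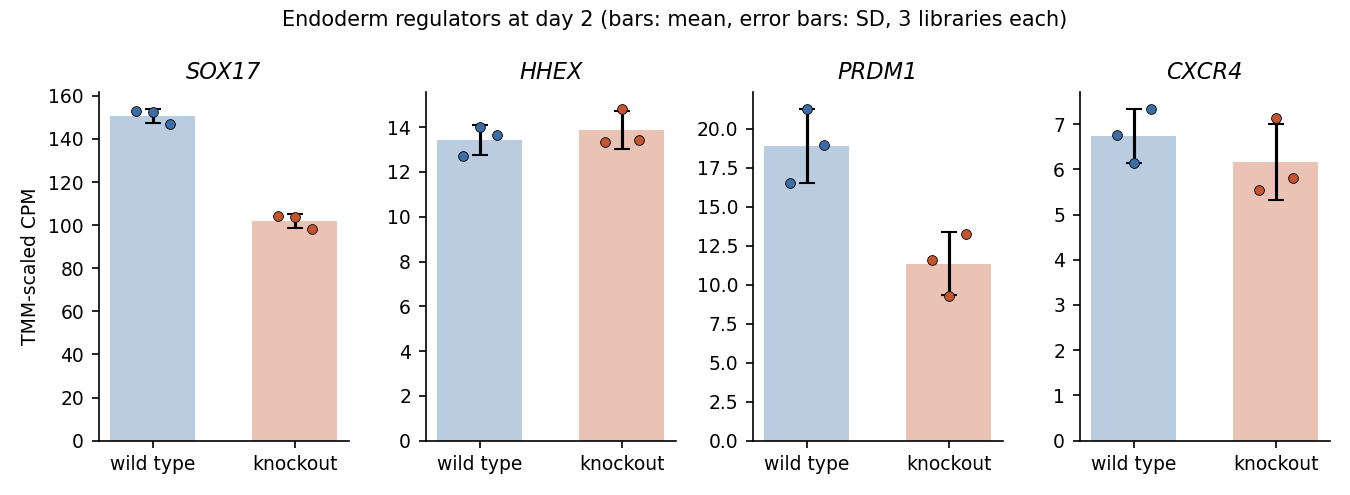
TMM-scaled CPM (vertical axes, each from 0) of SOX17, HHEX, PRDM1 and CXCR4 in wild-type and knockout libraries at day 2; points are libraries, bars the mean and error bars the SD of 3 libraries. The knockout points of SOX17 (98.3 to 104 CPM) and PRDM1 (9.25 to 13.2 CPM) lie below every wild-type point, and those of HHEX and CXCR4 overlap the wild type.

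SOX17 (chromosome 8, 54457935 to 54460888, plus strand, GRCh38) was the most abundant of the 4. Wild-type replicates 1, 2 and 3 held 153, 152 and 147 CPM. Knockout replicates 1, 2 and 3 held 104, 104 and 98.3 CPM. The lowest wild-type library stood well above the highest knockout library, and libraries of one genotype lay within a few CPM of each other. The means were 151 ± 3.3 and 102 ± 3.3 CPM (SD, n = 3), a change of −0.56 on the log2 scale (SE 0.038, 95% interval −0.64 to −0.48; adjusted p 2.52e-13 by edgeR). Its change was larger in size than that of 97.5% of all tested genes. These values rest on 2924 to 4891 counts per library.

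HHEX (chromosome 10, 92689951 to 92695646, plus strand) stayed within the spread of its libraries. Wild-type replicates 1, 2 and 3 held 12.7, 14.0 and 13.6 CPM, and the knockout replicates held 13.3, 14.8 and 13.4 CPM. The groups overlapped, with knockout replicate 2 the highest and wild-type replicate 1 the lowest of the 6. Means were 13.4 ± 0.669 and 13.9 ± 0.841 CPM (SD, n = 3), which is 0.04 on the log2 scale (SE 0.088; adjusted p 0.779 by edgeR). The 95% interval of the ratio, 0.909 to 1.17, does not reach the reductions estimated for SOX17 and PRDM1, and it leaves room for small changes either way. Counts were 351 to 534 per library. Without knockout replicate 2 the estimate turned to −0.0098.

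PRDM1 (chromosome 6, 106086320 to 106109939, plus strand) showed the largest estimated decrease of the 4 and more spread than SOX17. It was at 16.5, 21.3 and 18.9 CPM in wild-type replicates 1, 2 and 3. In knockout replicates 1, 2 and 3 it was at 11.6, 9.25 and 13.2 CPM. All 3 knockout libraries were below all 3 wild-type libraries, a separation seen in 18.8% of tested genes. The mean went from 18.9 ± 2.38 to 11.4 ± 2.01 CPM (SD, n = 3), which is −0.74 on the log2 scale (SE 0.111, 95% interval −0.97 to −0.51; adjusted p 3.24e-05 by edgeR). Of all tested genes, 99.0% had a smaller change. The counts behind it, 323 to 683 per library, are of the same order as those of HHEX.

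CXCR4 (chromosome 2, 136114349 to 136118165, minus strand) had the fewest counts of the 4, with 173 to 249 per library. Its level was 6.77, 6.14 and 7.33 CPM in the wild-type replicates, in order, against 5.54, 7.13 and 5.81 CPM in those of the knockout. Knockout replicates 1 and 3 were below every wild-type library, while knockout replicate 2 was above 2 of them. On the log2 scale the estimated change was −0.13 (SE 0.133; adjusted p 0.529 by edgeR). A decrease to 0.758 or an increase to 1.10 of the wild-type level lies within its 95% interval, so a modest reduction was not detectable at this depth.

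RefSeq sequence upstream of the gene start is shown for PRDM1, which fell, and for HHEX and CXCR4, which did not pass. SOX17, the other regulator that fell, and FOXA2 are not shown, so PRDM1 is the only called regulator here. Each run is the 250 bases before the first listed start, 5′ to 3′ on the gene's strand, on GRCh38.p14. The intervals are chr6:106086086-106086335 (plus strand), chr10:92689705-92689954 (plus) and chr2:136118150-136118399 (minus). Capitals mark CTTTGA, the core letters bound by the Wnt effectors TCF and LEF, and CAGAC, the letters bound by the Nodal and BMP effectors called SMADs, each on either strand.
PRDM1: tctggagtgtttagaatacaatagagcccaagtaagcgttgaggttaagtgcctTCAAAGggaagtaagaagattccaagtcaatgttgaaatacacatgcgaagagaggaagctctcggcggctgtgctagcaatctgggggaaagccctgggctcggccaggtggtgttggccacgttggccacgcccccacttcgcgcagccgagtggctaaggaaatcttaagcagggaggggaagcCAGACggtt
HHEX: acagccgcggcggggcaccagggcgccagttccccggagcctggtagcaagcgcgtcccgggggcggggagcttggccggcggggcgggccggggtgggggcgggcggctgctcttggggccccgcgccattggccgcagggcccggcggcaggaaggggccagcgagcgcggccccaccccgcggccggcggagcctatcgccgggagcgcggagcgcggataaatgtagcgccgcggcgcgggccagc
CXCR4: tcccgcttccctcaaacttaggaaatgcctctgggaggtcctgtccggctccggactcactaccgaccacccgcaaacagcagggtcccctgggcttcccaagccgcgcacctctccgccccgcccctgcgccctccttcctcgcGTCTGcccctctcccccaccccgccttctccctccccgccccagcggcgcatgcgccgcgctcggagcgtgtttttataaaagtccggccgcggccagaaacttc

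The PRDM1 run held 1 TCF/LEF match, which begins 196 bases before the start, and 1 SMAD match, which begins 9 bases before it. The HHEX run held neither. CXCR4 had 1 SMAD match, beginning 105 bases upstream, and no TCF/LEF match. Among 35116 RefSeq windows of the same length, 11.2% hold the TCF/LEF letters and 38.0% the SMAD letters, so both are common. A search of both strands for 5 more patterns found 1 FOXH1 and 1 SOX match in the PRDM1 run and none in the other two runs shown. For the Nodal cofactor FOXH1 the letters were TGTNNATT, present in 9.88% of the windows. For SOX factors they were ATTGT (24.6%). The T-box pattern was GGTGTGA, which 2.76% of the windows hold. For GATA factors AGATAA was searched, a pattern found in 9.17% of them. The homeobox factors OTX and GSC were represented by GGATTA (5.62%). Some matches of different patterns can overlap. PRDM1 has a second listed start, whose window held 1 TCF/LEF match beginning 38 bases before it and no SMAD match. CXCR4 has 2 further listed starts, whose windows held 1 FOXH1 match each, beginning 146 and 38 bases upstream, and no TCF/LEF or SMAD match. The runs differ in base composition: 53.6% of the PRDM1 bases, 68.0% of the CXCR4 bases and 81.2% of the HHEX bases are G or C, where the median window has 58.0%. A match is a description of the letters, and binding was not measured.

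Levels of different genes were compared per kilobase of annotated exon, from GENCODE release 29. In wild type, SOX17 was at 64.4 ± 1.41 CPM per kilobase (SD, n = 3), above 94.6% of tested genes. HHEX followed at 5.32 ± 0.265, then CXCR4 at 3.03 ± 0.268 and PRDM1 at 2.96 ± 0.372 CPM per kilobase. CXCR4 and PRDM1 did not differ beyond their spread in wild type, and their order turned when the principal transcript's length was used (3.56 and 3.66). In the knockout SOX17 was at 43.6 ± 1.41, HHEX at 5.49 ± 0.333, CXCR4 at 2.77 ± 0.381 and PRDM1 at 1.78 ± 0.314 CPM per kilobase. There the libraries of CXCR4 (2.49 to 3.21) and PRDM1 (1.45 to 2.07) no longer overlapped. SOX17 remained the highest of the 4, above 92.1% of tested genes, while PRDM1 moved from above 30.4% of them to above 18.9%.

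Ratios between regulators within a library do not depend on how libraries are scaled, and 6 pairs could be formed. The log2 ratio of SOX17 to HHEX was 3.59, 3.45 and 3.43 in the wild-type replicates, in order, against 2.96, 2.81 and 2.87 in those of the knockout, a difference of −0.61. The log2 ratio of HHEX to PRDM1 went from a mean of −0.49 ± 0.11 to 0.30 ± 0.34 (SD, n = 3). It was negative in every wild-type library and positive in every knockout library, a sign that depends on gene length. In CPM per kilobase of exon, HHEX was above PRDM1 in every library. Wild type had 5.03 to 5.54 against 2.59 to 3.33, and the knockout 5.28 to 5.87 against 1.45 to 2.07. SOX17 to CXCR4 differed by −0.43 and PRDM1 to CXCR4 by −0.61, again without overlap between genotypes. SOX17 to PRDM1 overlapped, with 2.84 to 3.21 in wild type and 2.89 to 3.49 in the knockout (difference 0.18, exact permutation p 0.5, adjusted p 0.5 over the 6 pairs). For HHEX to CXCR4 the difference was 0.18 (exact permutation p 0.2, adjusted p 0.24), also with overlap. The 4 pairs without overlap each had an exact two-sided permutation p of 0.1, the smallest that 3 libraries against 3 allow, and an adjusted p of 0.15, so none could pass. Each of these 4 joins SOX17 or PRDM1 to HHEX or CXCR4, so they restate the single-gene calls and are no further result. How many of all gene pairs separate the genotypes in this way was not computed. Leaving out knockout replicate 2 moved PRDM1 to CXCR4 to −0.36 and SOX17 to PRDM1 to 0.03. SOX17 to PRDM1 was 0.10 when wild-type replicate 2 was left out, 0.28 for wild-type replicate 1 and 0.33 for knockout replicate 3. HHEX to CXCR4 was 0.27 without wild-type replicate 2.

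**Figure D2:**
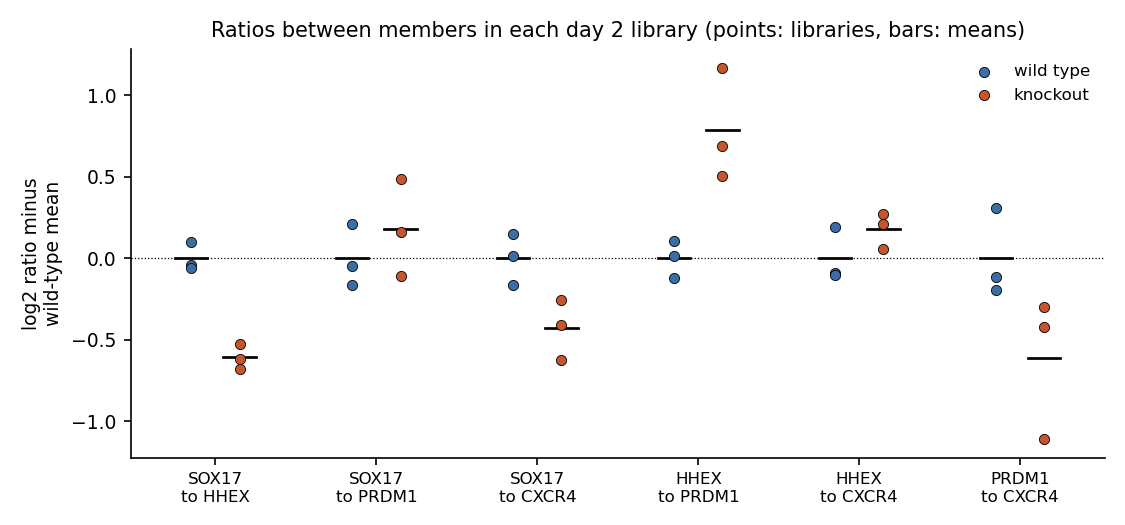
Log2 ratio of the CPM of 2 regulators in each day 2 library, minus the wild-type mean of that ratio (vertical axis), for the 6 pairs (horizontal axis); points are libraries and short bars the means of 3. SOX17 to HHEX and HHEX to PRDM1 separate the genotypes by 0.61 and 0.79 on the log2 scale, and SOX17 to PRDM1 and HHEX to CXCR4 do not separate them.

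Among 10177 other genes of at least 5 CPM, those with the pattern most like SOX17 over the 6 libraries, by root mean square distance of centred log2 CPM, were PIM2 (distance 0.048), MVD (0.057) and PPP1R13B (0.064). Unnamed loci, LINC RNAs, numbered open reading frames and numbered FAM genes, which the 10177 include, were left out of the ranking. PIM2 encodes a serine/threonine kinase, MVD an enzyme of cholesterol synthesis and PPP1R13B a p53-binding protein. Their log2 fold changes were −0.51, −0.48 and −0.53, near that of SOX17 by the way they were chosen. Nearest to PRDM1 were HPGD (0.078), which encodes a prostaglandin dehydrogenase, the pluripotency gene NANOG (0.127) and SETD7 itself (0.131). Wild-type replicates 1, 2 and 3 held 6.08, 6.89 and 6.93 CPM of HPGD, against 4.02, 3.21 and 4.23 CPM in the knockout replicates. In PRDM1, HPGD, NANOG and SETD7 alike, knockout replicate 2 was the lowest of the 6 libraries, a likeness that the choice by pattern favours. Exons of PPP1R13B overlap those of ZFYVE21, and whether reads were counted by strand is not stated, so its value is uncertain.

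SOX17 and PRDM1 were then set beside other genes of the endoderm programme, in 3 lists with 43 different tested genes. Of these, 11 rose, 10 fell and 22 did not pass, with a median log2 fold change of −0.03 against −0.00262 over all tested genes. Over all tested genes 12.3% were called higher and 11.0% lower, smaller shares than in these lists in both directions. That difference was not tested. None of the 43 had a decrease as large as that of SOX17; the lowest was −0.46.

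Of 17 genes of the Nodal signal and its feedback, 4 rose and 5 fell (median −0.02). The secreted antagonist CER1 rose from 7482 ± 44.4 to 8432 ± 100 CPM (SD, n = 3), and the signal transducer SMAD3 rose by 0.34 on the log2 scale. SMAD7, an intracellular inhibitor, and the antagonist LEFTY2 fell by 0.21 and 0.46. Named after their values were seen, NODAL fell from 8.98 ± 0.690 to 6.52 ± 0.825 CPM, which is −0.46 on the log2 scale (adjusted p 0.00548 by edgeR), and LEFTY1 by 0.38 on the log2 scale. The shared mediators SMAD2, SMAD4 and FOXH1 did not pass (log2 fold changes −0.02, −0.01 and 0.00376). Exons of SMAD3, LEFTY1, LEFTY2, NODAL, SMAD4 and FOXH1 overlap another annotated gene, which leaves their counts uncertain as above.

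Of 11 tested transcription factors of mesendoderm and endoderm, 4 rose, 1 fell and 6 did not pass (median −0.04). EOMES, GATA6 and GATA4 were among the 6 that did not pass. EOMES was at 1099 ± 11.0 CPM in wild type and 1082 ± 15.8 CPM in the knockout (SD, n = 3, edgeR adjusted p 0.623). GATA6 was at 760.1 ± 8.35 and 741 ± 10.7 CPM (edgeR adjusted p 0.395), and GATA4 differed by −0.06 on the log2 scale (edgeR adjusted p 0.17). The organiser genes GSC and LHX1 rose by 0.25 and 0.38 on the log2 scale, and TBX3 fell by 0.17. MIXL1 also rose (0.10, edgeR adjusted p 0.0139), a call lost without wild-type replicate 2, knockout replicate 2 or knockout replicate 3 (adjusted p 0.0968, 0.069 and 0.076) and with the replicate block (0.0587). FOXA3, a relative of FOXA2, was at 17.1 ± 2.12 CPM in wild type and 16.5 ± 0.632 CPM in the knockout, not passing the test (adjusted p 0.712 by edgeR). LHX1 and GATA6 overlap antisense transcripts. EOMES, GATA4, GATA6, MIXL1 and FOXA3 were named after their values were seen, as were SMAD2, SMAD4 and FOXH1 above.

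Of 16 surface and secreted genes linked to endoderm, 4 rose and 4 fell (median −0.06). BMP2, a BMP ligand, rose by 0.24 and the apelin receptor APLNR by 0.13 on the log2 scale, beside CER1. The growth factor FGF17 fell from 58.0 ± 1.46 to 45.0 ± 0.677 CPM (SD, n = 3), or by 0.37 on the log2 scale (adjusted p 1.25e-06 by edgeR). Of the others that passed, FGF8 (−0.25, edgeR adjusted p 0.0062) did not lose its call under any alternative. EPCAM (−0.25) lost its call without knockout replicate 1 (edgeR adjusted p 0.202) or without wild-type replicate 1 or 3 (0.0658 and 0.0848). CD177 (0.19) lost its call without wild-type replicate 2 (0.0983). RHOBTB3 (−0.09) lost its call with upper-quartile scaling (0.0906), with the replicate block (0.0966) and without any of 4 libraries, wild-type replicates 2 and 3 and knockout replicates 2 and 3 (0.0607 to 0.239). FGF8, EPCAM, CD177 and RHOBTB3 were named after their values were seen, and exons of CD177 and RHOBTB3 overlap antisense transcripts. Of 16 genes of later endoderm organs only APOE and SOX9 were tested, and neither passed (edgeR adjusted p 0.943 and 0.948).

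**Figure D3:**
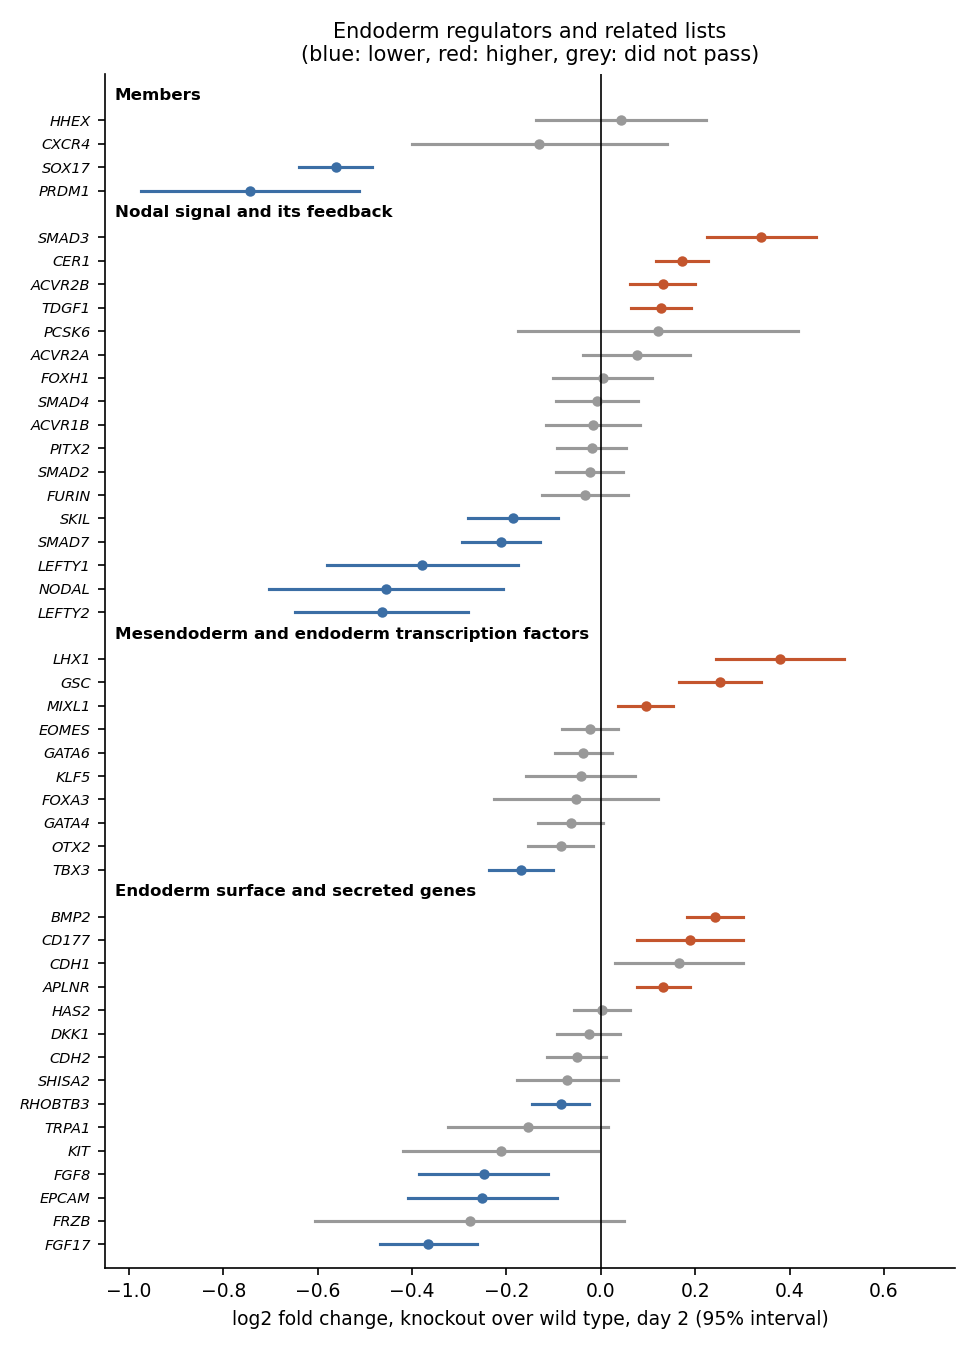
Log2 fold change of knockout over wild type at day 2 (horizontal axis) with its 95% interval, for the 4 measured regulators and 42 of the 43 tested genes of the 3 endoderm-related lists, each gene drawn once; blue is lower, red higher and grey did not pass. SOX17 (−0.56) and PRDM1 (−0.74) lie further left than any list gene drawn, of which the lowest is at −0.46.

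Around CXCR4, 7 of 11 listed genes of its chemokine axis were tested, of which 2 rose and 1 fell (median 0.05). The gene that fell was ACKR3, the second receptor for CXCL12, which scavenges the chemokine. It went from 79.3 ± 3.98 to 62.1 ± 1.59 CPM (SD, n = 3), −0.35 on the log2 scale (adjusted p 6.03e-07 by edgeR). CXCL12 itself was at 54.2 ± 1.70 and 54.6 ± 2.10 CPM and did not pass (edgeR adjusted p 0.92). The G-protein regulator RGS16 rose by 0.23 (edgeR adjusted p 0.021), a call lost on leaving out wild-type replicate 1, knockout replicate 1 or knockout replicate 3 (0.107, 0.0596 and 0.0925). The arrestin gene ARRB2 rose by 0.20 (0.0234), lost without any single wild-type library or knockout replicate 3 (0.0503 to 0.11). ARRB1, which overlaps an antisense transcript, did not pass (−0.12). CXCL12 was named after its values were seen.

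Of 10 tested paralogs of the regulators 1 rose and none fell (median 0.03), where 12.3% of all tested genes were called higher and 11.0% lower. The closest relatives of SOX17, SOX7 and SOX18, named after their values were seen, did not pass at 4.30 ± 0.593 against 4.55 ± 0.488 CPM and 4.73 ± 0.656 against 4.92 ± 0.494 CPM (SD, n = 3). PRDM2, PRDM6 and PRDM10 did not pass either (0.03, 0.22 and −0.17). Of 9 tested corepressors known to act with PRDM1 or HHEX, KDM1A rose (0.11) and KDM4A fell (−0.17), and TLE1 and TLE4 did not pass (0.11 and 0.09; list median 0.07). KDM1A did not pass without knockout replicate 3 (edgeR adjusted p 0.0662), nor KDM4A without knockout replicate 2 or 3 or wild-type replicate 1 or 2 (0.052 to 0.129). Exons of SOX7, PRDM6, KDM4A and TLE4 overlap another annotated gene.

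SOX17, PRDM1, HHEX and CXCR4 are also expressed in other cell types, whose markers were counted in the same libraries. Over all tested genes 11.0% were called lower and 12.3% higher, the shares to set beside each count of markers. Of 12 primordial germ cell markers 6 were tested, and 2 fell, PDPN from 34.1 ± 1.38 to 23.1 ± 2.10 CPM and TFAP2C from 6.06 ± 0.832 to 2.72 ± 0.408 CPM (SD, n = 3). Their summed level was 63.5 to 67.9 CPM in wild type and 48.1 to 53.4 CPM in the knockout. KIT and SOX15 did not pass (−0.21 and 0.33), DPPA3 was near the bottom of the table at 1.70 and 1.77 CPM, and NANOS3 was not analysed here at day 2. Of 11 amnion and trophoblast markers 5 were tested, and 3 fell, ISL1 (−1.16), HAND1 (−0.17) and GATA3 (−0.21), GATA2 not passing (0.01). Their sum was 443 to 450.4 CPM in wild type and 394 to 404 CPM in the knockout. Most of that sum was HAND1, also listed as a mesoderm marker, with means of 373 and 332 CPM. PDPN, TFAP2C, ISL1, HAND1 and GATA3 thus fell with SOX17 and PRDM1, while 4 of the 6 germ cell markers and 2 of the 5 amnion and trophoblast markers did not pass. The part of these cell types in the SOX17 and PRDM1 decreases was not tested.

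Of 15 hemato-endothelial markers 6 were tested; TEK (0.69) and KDR (0.12) rose, ETV2 fell (−0.70, edgeR adjusted p 0.0399) and RUNX1 did not pass (−0.13). The ETV2 call was lost in 7 settings, namely DESeq2, the replicate block, and without any wild-type library or knockout replicate 2 or 3 (0.0606 to 0.164). Their sum was 726 to 762 CPM in wild type and 802 to 836 CPM in the knockout. Most of that sum was KDR, also listed as a mesoderm marker, with means of 693 and 753 CPM. The other sums likewise follow their most abundant genes. Of 8 node and axial mesoderm markers 3 were tested: NOG (−0.48) and TBXT, listed as T (−0.26), fell and GSC rose, with sums of 182 to 186 and 176 to 188 CPM. Of 11 extraembryonic endoderm markers 9 were tested and 3 rose, PDGFRA (0.26), LAMB1 (0.22) and LAMA1 (0.13), while none fell; sums were 3092 to 3195 and 3212 to 3294 CPM. LAMA1 (edgeR adjusted p 0.0356) did not pass on leaving out wild-type replicate 1, wild-type replicate 3 or knockout replicate 1 (0.106, 0.188 and 0.196) or by DESeq2 (adjusted p 0.065). Of 12 mesoderm markers 5 rose and 5 fell (HAND2 0.56, PDGFRA 0.26, FOXF1 −0.37, SNAI2 −0.32), with sums of 3972 to 4047 and 4216 to 4296 CPM. Of 11 pluripotency markers 3 rose (GDF3 0.67, DNMT3B 0.17, TDGF1 0.13) and 1 fell (NANOG −0.58), with sums of 4066 to 4102 and 4222 to 4253 CPM. Of 8 neural ectoderm markers ZIC2 and NES were tested and rose by 0.13 each, with sums of 772 to 797 and 829.6 to 891 CPM. The part of these sets in the SOX17 and PRDM1 results was not tested. SOX15, HAND2, PDGFRA, LAMB1, LAMA1 and TDGF1 overlap another annotated gene.

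**Figure D4:**
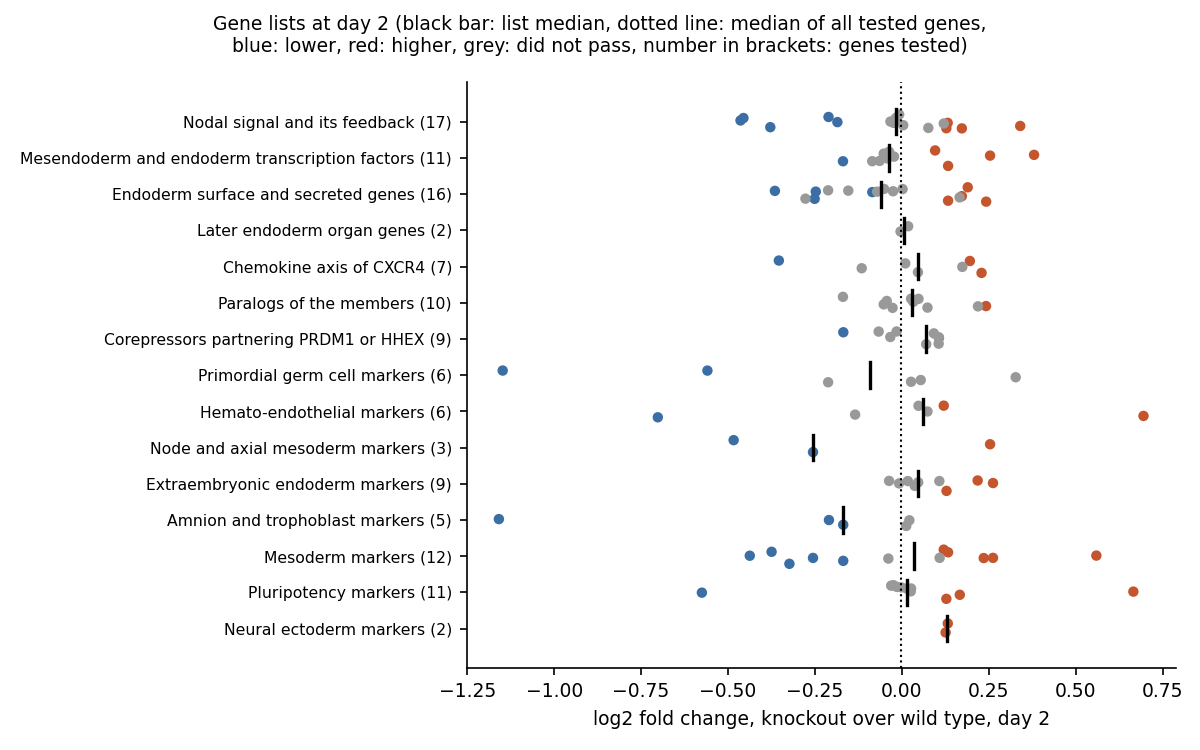
Log2 fold change of knockout over wild type at day 2 (horizontal axis) of each tested gene of the 15 gene lists (rows, number tested in brackets); black bars are list medians, the dotted line is the median of all tested genes, blue is lower, red higher and grey did not pass. The medians of the 3 endoderm-related lists, −0.02, −0.04 and −0.06, lie close to the dotted line at −0.00262.

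In undifferentiated cells at day 0, the 5 regulators were low in both genotypes. SOX17 was at 0.0165 FPKM in the wild-type library and 0.0426 FPKM in the knockout library. FOXA2 was listed at 0 in wild type and at 0.0206 FPKM in the knockout. PRDM1 was at 0.137 and 0.222 FPKM. HHEX was at 0.883 and 0.977 FPKM, near the level of CXCR4 at 0.698 and 1.12 FPKM. Each regulator was thus listed higher in the knockout library, with 1 library per genotype and no replicate check. How many of all genes, or of genes this low, were listed higher there was not counted. CXCR4 in the knockout was the one value to reach 1 FPKM.

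**Figure D5:**
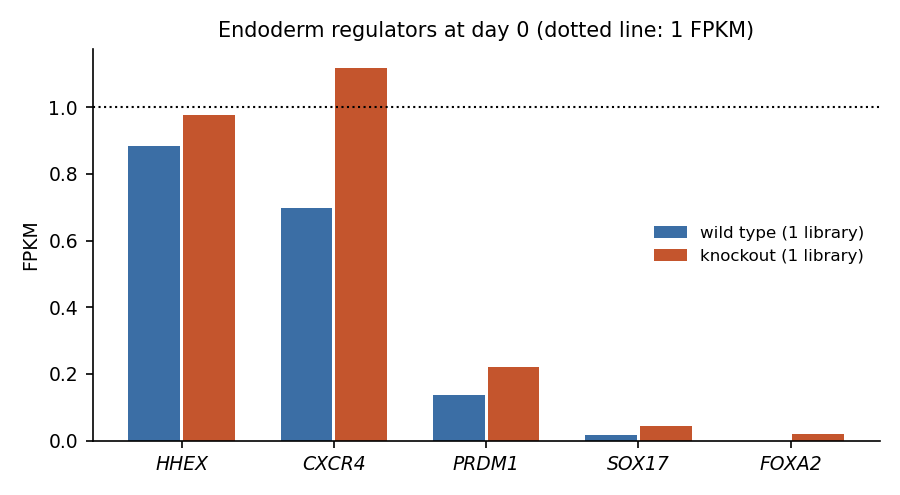
FPKM (vertical axis, from 0) of the 5 regulators in the wild-type and knockout libraries at day 0, 1 library each and therefore without error bars; the dotted line marks 1 FPKM. HHEX and CXCR4 are near 1 FPKM and PRDM1, SOX17 and FOXA2 at 0.222 FPKM or less.

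FPKM is scaled for gene length, so the day 0 levels can be ordered directly: HHEX and CXCR4 were highest and SOX17 and FOXA2 lowest. Within the wild-type table HHEX exceeded 5.88% of genes, CXCR4 4.88%, PRDM1 1.90% and SOX17 0.839%. Whether neighbours in that order differ cannot be judged without replicates. The log2 ratio of FPKM + 1, knockout over wild type, was 0.32 for CXCR4, 0.10 for PRDM1, 0.07 for HHEX, 0.04 for SOX17 and 0.03 for FOXA2; the added 1 FPKM shrinks the ratio of such low genes. Of 13284 genes with at least 1 FPKM in either library, 13.6% differed by at least 1.5-fold on that scale, and CXCR4, the single regulator among them, did not. That depends on the added value: with 0.1 FPKM its log2 ratio was 0.6093, and its plain FPKM ratio was 1.6, both past 1.5-fold. On those scales the share of all genes past 1.5-fold was not computed, and the 13.6% does not apply to them. The order at day 0 was unlike that at day 2, where SOX17 led, but the tables are in different units and were compared within a day only.

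Genes of the same lists moved in both directions between the 2 day 0 libraries. Of all 13284 genes at 1 FPKM or more, 639 were past 1.5-fold higher in the knockout library and 1165 lower. Of 16 Nodal genes at 1 FPKM or more, 6 were at least 1.5-fold higher in the knockout and 1 lower, led by LEFTY1 (0.0311 against 11.8 FPKM), NODAL (1.13 against 5.25 FPKM) and SMAD7 (2.28 against 7.83 FPKM). All 3 were higher in the knockout library at day 0 and fell at day 2. Of the others past 1.5-fold higher, LEFTY2 and SKIL also fell at day 2, while CER1 (2.95 against 5.32 FPKM) rose. LEFTY2, SKIL and CER1 were named here after their values were seen. Whether the 2 days differ was not tested. Of 5 transcription factors none was past 1.5-fold higher and 2 were lower, among them OTX2 (16.2 against 7.20 FPKM), MIXL1 being at 0.598 and 1.05 FPKM. Of 11 surface and secreted genes 3 were higher and 2 lower, with RHOBTB3 at 5.18 and 2.48, CD177 at 2.04 and 0.807 and HAS2 at 0.638 and 1.73 FPKM. In the chemokine axis 1 of 10 was past 1.5-fold, ARRB1 (5.89 against 13.8 FPKM). Of 7 paralogs 1 was, PRDM2 (2.47 against 5.48 FPKM), while PRDM14 was at 18.4 and 27.4 FPKM. The median log2 ratio over all genes at 1 FPKM or more was −0.03, against 0.09 for the Nodal genes, −0.08 for the transcription factors, −0.05 for the surface genes, −0.13 for the chemokine axis and 0.35 for the paralogs.

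Markers of other cell types differed between the day 0 libraries as well. Beside their counts stand those of all 13284 genes, 639 past 1.5-fold higher in the knockout library and 1165 lower. All 3 amnion and trophoblast markers at 1 FPKM or more were past 1.5-fold lower in the knockout library (median log2 ratio −1.07), with summed levels of 32.8 FPKM in wild type and 13.9 FPKM in the knockout. Of 11 pluripotency markers 4 were past 1.5-fold higher and none lower (median 0.40), with sums of 1674 and 2027 FPKM. None of 6 primordial germ cell markers was past 1.5-fold (median −0.01; sums 63.4 and 79.3 FPKM), nor any of 3 hemato-endothelial (0.32) or 2 node and axial mesoderm markers (−0.16). Of 8 extraembryonic endoderm markers 2 were lower (−0.07), as were 1 of 3 mesoderm (0.32) and 1 of 3 neural ectoderm markers (−0.39), with none higher. Of 3 later endoderm organ genes 1 was higher and 1 lower (−0.30), and of 10 corepressors 2 were higher and none lower (0.09). The part of these cell types in the day 0 values of the 5 regulators was not tested.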

How the data were processed

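RNA was measured in 8 libraries whose genotype, day and replicate number come from the labels. Per the labels' protocols, TRIzol was used for extraction and a SMARTER kit for the libraries. The submitters' processing notes name HISAT2, StringTie and GRCh38. Which tool counted reads, by which strand setting, annotation and gene filter, is not given in the sources used here. Day 2 values are raw counts per gene, per the file headers, and day 0 values are FPKM, per the file headers. Day 0 depth could not be recovered from its low values.

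Day 2 counts were filtered with filterByExpr, scaled by TMM and fitted with edgeR 4.0.16 in R 4.3.3 (robust quasi-likelihood, genotype as the only term, two-sided, Benjamini-Hochberg over 11475 genes); standard errors and 95% intervals come from its F statistic. The steps were tested on simulated data. Member ratios were tested by exact permutation (scipy 1.17.1). Alternatives were DESeq2 1.42.0, limma-voom (limma 3.58.1), 2 other scalings, 2 other filters, the replicate block and leaving out each library. Libraries of one genotype differed beyond counting noise (chi-square over degrees of freedom 3.04 to 8.95), so each counted once. Exon lengths and overlaps are from GENCODE release 29; 131 tested symbols had no match there. Promoters are from RefSeq.

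The members, the 15 gene lists and the tests were chosen with earlier results of these data known, and list counts are descriptions without a test of the list. Named genes were the members, SETD7, up to 4 genes per list with the smallest p at day 2, up to 3 per endoderm-related, chemokine or paralog list with the largest day 0 ratio, and 3 nearest genes per called member; others carry a remark in the text that they were named after their values were seen. Values of 2 list genes are not reported here; counts and medians over the lists include them.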

Additional observations from a re-analysis of the deposited data

Results flagged for a closer look

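SOX17 and PRDM1 moved in opposite directions on the 2 days, counted over single libraries. At day 0 the knockout library was above the wild-type library, by 0.0365 for SOX17 and 0.1044 for PRDM1 as log2 ratios of FPKM + 1, while at day 2 all 3 knockout libraries were below all 3 wild-type libraries (log2 fold changes −0.56 and −0.74). The difference between the days was not tested, since day 0 has 1 library per genotype in another unit, and all 4 day 0 values were at 0.222 FPKM or less.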

How the results depend on the processing

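SOX17 and PRDM1 kept their direction and their call under all 13 day 2 alternatives, with log2 fold changes of −0.58 to −0.54 and −0.86 to −0.62 and adjusted p values of at most 9.82e-10 and 0.000534. CXCR4 did not pass in any of them (−0.25 to −0.05). HHEX did not pass in any of them either, and its estimate ran from −0.0098 to 0.0745, both among the fits without 1 library, the negative value being that without knockout replicate 2. Called genes numbered 2005 to 2669 over the alternatives. Same-numbered libraries did not deviate together (correlations −0.067, −0.076 and −0.038, and no library correlated best with its own number), so the numbers were not taken as pairs; with the replicate block 2210 genes were called, SOX17 was at −0.56 and PRDM1 at −0.74. For the 6 ratios the block leaves the difference as it is by arithmetic (SOX17 to HHEX −0.61), so it is no check of them. All 6 ratios kept their sign without any single library, but 3 moved by over 1.5 times: SOX17 to PRDM1 ran from 0.03 to 0.33, HHEX to CXCR4 from 0.13 to 0.27 and PRDM1 to CXCR4 from −0.76 to −0.36.

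Day 0 ratios depended on the pseudocount. With 0.1 FPKM they were 0.2914 for SOX17, 0.2700 for FOXA2, 0.1306 for HHEX, 0.4436 for PRDM1 and 0.6093 for CXCR4. With 5 FPKM they were 0.0075, 0.0059, 0.0227, 0.0238 and 0.1025 in the same order. Centred on the median of all genes they were 0.0682, 0.0610, 0.1013, 0.1360 and 0.3501. The first 2 settings change the ratio by construction. Of the other list genes called at day 2, 11 lost the call under at least 1 alternative. The design's day 2 result for FOXA2 and its 4 ratios were not run.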
